A study of Mus musculus with 6 samples.

Results

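The fasting and glucose-sensing genes of the heart are described here as 7 genes, *Pdk4*, *Ucp3*, *Angptl4*, *Acot1*, *Txnip*, *Arrdc4* and *Klf10*, found by their gene symbols among the 21776 genes of the deposited table. All 7 were present once. They were chosen by their normalised read counts in KO and WT hearts of this same data set, so their differences between genotypes are given as a description and support nothing further. The study sequenced strand-specific total RNA of 3 *Trdn-as* KO hearts and 3 WT hearts from mice, 1 library per heart. *Trdn-as*, a cardiomyocyte long non-coding RNA, is transcribed antisense to the triadin gene *Trdn*. In the KO line, a germline allele, Cas9-directed repair in embryonic stem cells placed a polyA signal within exon 1 of *Trdn-as*, and chimeric mice were backcrossed to C57BL/6 and bred to homozygosity. The series names the adult heart in its title, the WT hearts carried no allele named in the labels, and the labels name no treatment of either group. Mice were housed with unlimited food. The feeding state and the hour at which the hearts were collected, as well as the age in weeks and the sex of these 6 mice, are not given in the sources used here.

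Fasting shifts the heart from glucose to fatty acids. Free fatty acids that enter the cardiomyocyte act as ligands of the PPAR nuclear receptors, which switch on genes of fat handling, while low insulin frees the FoxO factors to switch on an overlapping set. Glucose is sensed by MondoA (*Mlxip*) and ChREBP (*Mlxipl*), which pair with MLX and bind carbohydrate response elements when glucose 6-phosphate is high. *Pdk4* codes for a kinase that shuts off the pyruvate dehydrogenase complex and so spares glucose. *Ucp3* is an inner mitochondrial membrane carrier, *Angptl4* a secreted inhibitor of lipoprotein lipase, and *Acot1* a cytosolic thioesterase that releases fatty acids from acyl-CoA. *Txnip* and *Arrdc4* are arrestin-domain proteins that lower glucose uptake and are the best known MondoA targets. *Klf10* is a zinc finger repressor that responds to TGF-beta and, in liver, to glucose and the clock.

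The promoters of 3 genes are shown because they hold letters that resemble whole or part sites of these regulators. Of these promoters 2 belong to glucose-sensing genes and 1 to a fasting gene. Each is the 250 bases before the RefSeq start (GRCm38.p6), read along the gene, with matched motifs in capitals. RefSeq promoters were matched by symbol for 5 of the 7 genes, namely *Pdk4*, *Ucp3*, *Acot1*, *Txnip* and *Arrdc4*. The *Txnip* window lies at chr3:96557707-96557956 on the plus strand, that of *Arrdc4* at chr7:68749239-68749488 on the minus strand, and that of *Ucp3* at chr7:100472741-100472990 on the plus strand.
Txnip: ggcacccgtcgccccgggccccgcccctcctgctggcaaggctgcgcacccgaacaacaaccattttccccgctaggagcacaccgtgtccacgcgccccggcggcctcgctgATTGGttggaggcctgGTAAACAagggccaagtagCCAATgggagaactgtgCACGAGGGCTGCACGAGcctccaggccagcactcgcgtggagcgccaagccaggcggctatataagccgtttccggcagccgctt
Arrdc4: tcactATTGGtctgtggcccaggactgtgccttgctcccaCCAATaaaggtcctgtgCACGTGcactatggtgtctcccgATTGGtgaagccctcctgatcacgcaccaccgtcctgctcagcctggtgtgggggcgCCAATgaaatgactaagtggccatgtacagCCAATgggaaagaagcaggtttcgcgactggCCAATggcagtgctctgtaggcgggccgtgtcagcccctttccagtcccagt
Ucp3: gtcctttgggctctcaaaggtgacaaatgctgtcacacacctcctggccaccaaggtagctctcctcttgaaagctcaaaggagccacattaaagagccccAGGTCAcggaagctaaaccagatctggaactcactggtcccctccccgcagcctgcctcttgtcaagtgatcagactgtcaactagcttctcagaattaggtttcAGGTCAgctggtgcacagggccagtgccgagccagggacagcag

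Motifs were searched on both strands by their letters. A pair of CACGNG sequences with 5 bases between them, built like a carbohydrate response element, occurred in the *Txnip* window from 85 to 69 bases before the start, as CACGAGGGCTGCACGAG. It was present in 0.0457% of 32817 promoter windows of the same length and in none of the other 4 promoters of these genes. The E-box CACGTG, which can overlap the paired sequence but did not do so here, occurred in the *Arrdc4* window from 193 to 188 bases before the start and in 6.02% of all windows. *Txnip* also held the FoxO motif GTAAACA from 121 to 115 bases before the start (3.16% of all windows). The CCAAT box was found in 4 of the 5 promoters and in 33.8% of all windows, with 6 copies in *Arrdc4*, 2 in *Txnip* and 1 each in *Pdk4* and *Acot1*. *Ucp3* lacked these letters but held 2 copies of AGGTCA, the core recognised by nuclear receptors, from 149 to 144 and from 44 to 39 bases before the start (14% of all windows). A match describes the letters only.

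*Trdn-as* itself, listed as AC157017.2 (ENSMUSG00000112707, chromosome 10 from 33222345 to 33256418, GRCm38), had normalised read counts, called reads from here on, of 690, 773 and 688 (WT) and 1, 0 and 1 (KO), at or under a floor of 3 reads per library and at least 240-fold lower. The deposited values summed to between 3.13 and 3.25 M per library, which corresponds to an estimated 2.59 to 3.62 M counted reads. WT replicate 1 was the shallowest library. The summed level of 8 cardiomyocyte markers, all of them detected, was 119486 in that heart, 106958 and 97272 in the other WT hearts, and 93658 to 98110 in KO hearts. Most of this sum was *Ttn*, with 94044 in WT replicate 1. All 8 markers were lower in KO, 5 of them at an unadjusted p under 0.05 (limma). Lower genes at that p made up 2.8% of all tested genes, and none of the 8 passed an adjusted p of 0.05 (limma). In whole hearts, fewer cells of a type and less RNA per cell cannot be told apart.

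Measured per exonic kilobase, so that genes can be compared, the 7 genes spanned a wide range of levels. *Pdk4* had a mean of 485 normalised reads per kilobase over the 6 hearts and *Txnip* 426, followed by *Ucp3* with 163. *Klf10* had 48.2, *Arrdc4* 32.2, *Angptl4* 22.9 and *Acot1* 8.34. *Pdk4* and *Txnip* overlapped across hearts (381 to 569 and 385 to 479), as did *Klf10* and *Arrdc4* (39.2 to 68.2 and 21 to 44.6), *Arrdc4* and *Angptl4* (7.91 to 34.5), and *Angptl4* and *Acot1* (6.38 to 11.2). *Ucp3* (97 to 195) overlapped neither neighbour. All 7 genes passed the filter for testing, a mean normalised read count of at least 10.

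*Pdk4* (ENSMUSG00000019577, chromosome 6 from 5483351 to 5496309, minus strand, GRCm38) had normalised read counts of 1682, 1885 and 1998 (KO) against 1337, 1574 and 1742 (WT). WT replicate 1 was the lowest heart and the groups overlapped, since WT replicate 3 exceeded KO replicate 1. The mean was 1855 ± 160 (SD, n = 3) in KO and 1551 ± 203 (SD, n = 3) in WT, a log2 fold change of 0.26 (SE 0.08).

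*Ucp3* (ENSMUSG00000032942, chromosome 7 from 100472991 to 100486432, plus strand) showed the same order of hearts except at the top. Its counts were 534, 610 and 577 (KO) against 304, 458 and 576 (WT). The KO hearts lay close together, whereas WT hearts differed 1.89-fold and WT replicate 3 reached the KO level. KO hearts averaged 574 ± 38.1 and WT hearts 446 ± 136 (SD, n = 3 each), with a log2 fold change of 0.41 (SE 0.14). The antisense gene *Gm10603*, which overlaps *Ucp3* and was counted apart from it by strand, had 19, 17 and 19 reads (KO) against 14, 29 and 16 (WT).

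*Angptl4* (ENSMUSG00000002289, chromosome 17 from 33773750 to 33781575, minus strand) varied most between hearts, 4.36-fold from the lowest to the highest. It had counts of 64, 122 and 114 (KO) against 28, 58 and 100 (WT), and the groups overlapped. KO hearts averaged 100 ± 31.4 and WT hearts 62 ± 36.2 (SD, n = 3 each), with a log2 fold change of 0.80 (SE 0.30). Counting error alone gives a coefficient of variation of 8.81 to 21.2% at these depths, against 31.4% measured between KO and 58.3% between WT hearts. The adipocyte genes *Adipoq* and *Plin1*, markers of fat, where *Angptl4* is also made, were at 2 to 13 and 3 to 15 reads, each highest in KO replicate 2, which was also the highest heart for *Angptl4*. All 8 adipocyte markers of the table, 2 of them above the filter, summed to 312 to 355 in KO and 294 to 333 in WT hearts, most of it *Fabp4* (269 to 306), which endothelial cells also make. The other 7 summed to 18, 75 and 26 (KO) against 31, 31 and 25 (WT), the highest again in KO replicate 2. Without that heart the log2 fold change of *Angptl4* was 0.63. The part of fat in the *Angptl4* values was not tested.

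*Acot1* (ENSMUSG00000072949, chromosome 12 from 84009490 to 84018371, plus strand) was the least abundant of the 7, with 44, 27 and 37 reads (KO) against 25, 29 and 34 (WT). KO replicate 1 was the highest heart and KO replicate 2 was below 2 of the WT hearts, so the groups overlapped. Its log2 fold change was 0.27 (SE 0.22). Reads of more than 1 location had been removed upstream, so that its level is uncertain in stretches shared with its close paralog *Acot2*.

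The glucose-sensing genes ordered the hearts differently. *Txnip* (ENSMUSG00000038393, chromosome 3 from 96557957 to 96561883, plus strand) had counts of 1242, 1435 and 1495 (KO) against 1201, 1333 and 1280 (WT). Its groups overlapped, with KO replicate 1 below 2 of the WT hearts. KO hearts averaged 1391 ± 132 and WT hearts 1271 ± 66.4 (SD, n = 3 each), and its log2 fold change of 0.13 (SE 0.07) was the smallest of the 7. The antisense gene *Gm15441*, which overlaps *Txnip*, was counted separately by strand and had 5, 7 and 13 reads (KO) against 3, 0 and 5 (WT).

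*Arrdc4* (ENSMUSG00000042659, chromosome 7 from 68736995 to 68749241, minus strand) had counts of 126, 165 and 180 (KO) against 106, 118 and 85 (WT). All KO hearts were above all WT hearts. KO hearts averaged 157 ± 27.9 and WT hearts 103 ± 16.7 (SD, n = 3 each), with a log2 fold change of 0.60 (SE 0.14). *Klf10* (ENSMUSG00000037465, chromosome 15 from 38294413 to 38300707, minus strand) had counts of 188, 239 and 285 (KO) against 165, 168 and 164 (WT), again without overlap. The WT hearts were nearly equal, at 166 ± 2.08 (SD, n = 3), while KO hearts spread over 237 ± 48.5 (SD, n = 3), with a log2 fold change of 0.50 (SE 0.11). For WT hearts the measured spread of *Klf10*, 1.26%, was below the 5.91 to 8.73% that counting error gives over the 6 libraries, so the closeness of these 3 values is not a measure of how alike the hearts were.

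**Figure D1:**
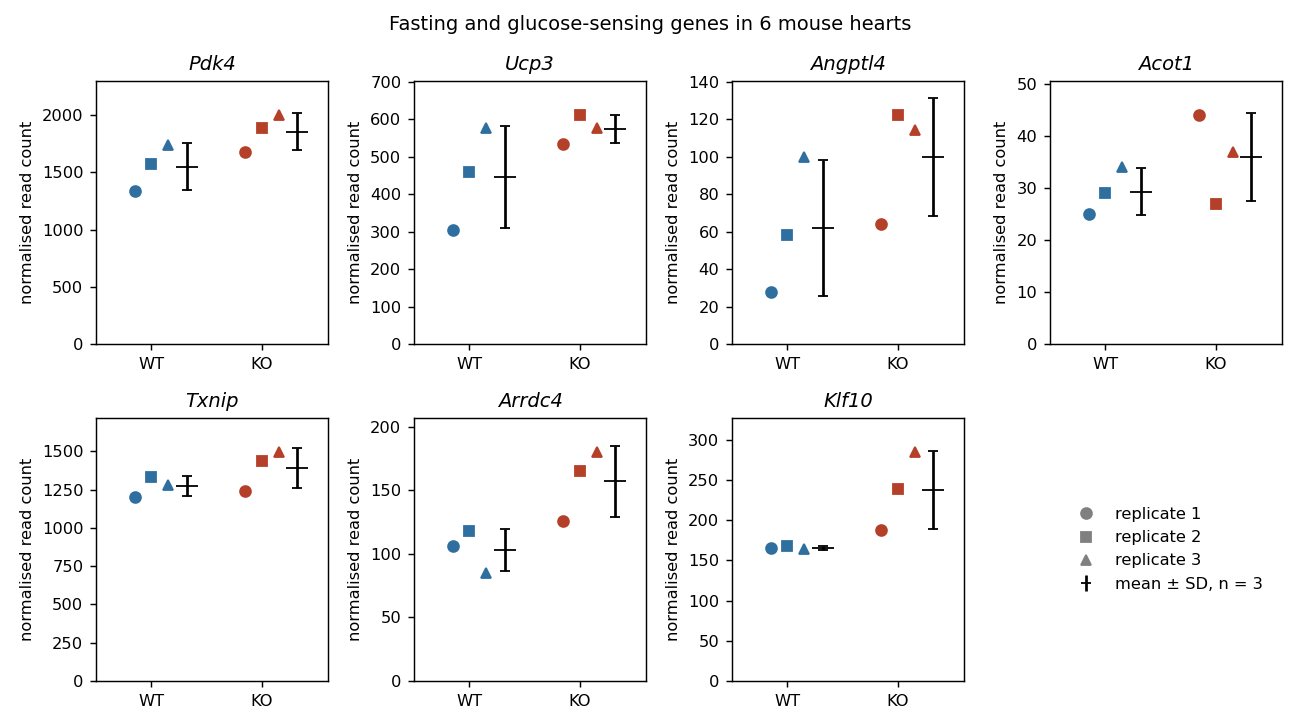
Normalised read counts (vertical axes, starting at 0) of the 7 genes in WT and KO hearts, with 1 point per heart, a marker shape per replicate number, and the mean ± SD (n = 3). *Arrdc4* and *Klf10* separate the genotypes, and for *Pdk4*, *Ucp3* and *Angptl4* the lowest heart is WT replicate 1, at 1337, 304 and 28.

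The mean of all 7 genes was thus higher in KO, by a median of 0.41 on the log2 scale, whereas all 13753 tested genes had a median of 0.00 and 50.6% of them were above 0. None of the 7 was among the 4 genes past an adjusted p of 0.05 in limma, which made up 0.0291% of those tested, those higher in KO making up 0.0218% and the lower 0.00727%. An unadjusted p under 0.05 (limma) was found for 5 of the 7, all higher in KO, beside 2.94% of tested genes that were higher and 2.8% that were lower. KO hearts were all above WT hearts for 2 of the 7 genes and all below for 0, beside 4.64% and 4.44% of tested genes. Since the genes were chosen by this contrast, these counts are no test of them and nothing is read from them. An exact permutation test of 3 against 3 hearts cannot go below 0.1.

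The differences of the fasting genes depended on WT replicate 1. Without WT replicate 1 the log2 fold change was 0.16 for *Ucp3* instead of 0.41, 0.33 for *Angptl4* instead of 0.80, 0.16 for *Pdk4* instead of 0.26 and 0.16 for *Acot1* instead of 0.27. Without WT replicate 3 it was 0.62 for *Ucp3* and 1.23 for *Angptl4*. *Acot1* was at 0.12 without KO replicate 1 and at 0.46 without KO replicate 2. *Arrdc4* and *Klf10* did not depend on WT replicate 1 in this way, with 0.63 and 0.49 without it. *Txnip* was at 0.21 without KO replicate 1 and at 0.07 without KO replicate 3. All 7 genes stayed higher in KO in each of the 6 fits that left out 1 heart. Their choice by this contrast in the same hearts favours that, so it is no test of them.

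Across hearts the 7 genes fell into patterns. *Pdk4*, *Ucp3* and *Angptl4* moved together, with a Pearson r of log2 values over the 6 hearts of 0.93 between *Pdk4* and *Ucp3* (Spearman rho 0.94), 0.97 between *Pdk4* and *Angptl4* (rho 0.94) and 0.96 between *Ucp3* and *Angptl4* (rho 1.00). All 3 placed the hearts in the order WT replicate 1, WT replicate 2, KO replicate 1 and WT replicate 3, with the other KO hearts on top. The deviations from the genotype means had r of 0.90, 0.97 and 0.95. The likeness held without the 2 hearts farthest from the median of the first gene of each pair, with r of 0.96, 0.94 and 0.95. These are descriptions of 6 libraries that share their normalisation, and within 1 genotype 3 hearts are too few for a correlation.

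*Arrdc4* and *Klf10* formed the second pattern, with r of 0.92 and rho of 1.00, and r of 0.98 without the 2 farthest hearts. The order of the WT hearts for *Klf10* rests on 164, 165 and 168 reads, closer together than counting error. The genotype difference by which both genes were chosen also enters these values. *Txnip* correlated with *Klf10* at r of 0.88 and with *Arrdc4* at 0.80, but both relations rested on KO replicates 2 and 3, the hearts highest in all 3 genes. Without them r was -0.15 and -0.00. The deviations from the genotype means had r of 0.87 for *Txnip* and *Klf10*, 0.72 for *Txnip* and *Arrdc4* and 0.76 for *Arrdc4* and *Klf10*. With *Pdk4*, *Angptl4* and *Ucp3*, *Txnip* had r of 0.84, 0.79 and 0.66, and 0.55, 0.59 and 0.69 without the 2 farthest hearts. *Arrdc4* and *Ucp3* correlated at 0.39, and their deviations from the genotype means at -0.23. *Acot1* followed none of the other 6 genes closely, with r between 0.05 and 0.53. Over all 21 pairs r was above 0, with a median of 0.65. The choice by genotype difference favours such values, and the median r of the deviations from the genotype means was 0.41, with 0.11 over the 12 pairs of a fasting and a glucose-sensing gene and -0.62 for *Acot1* and *Arrdc4*.

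**Figure D2:**
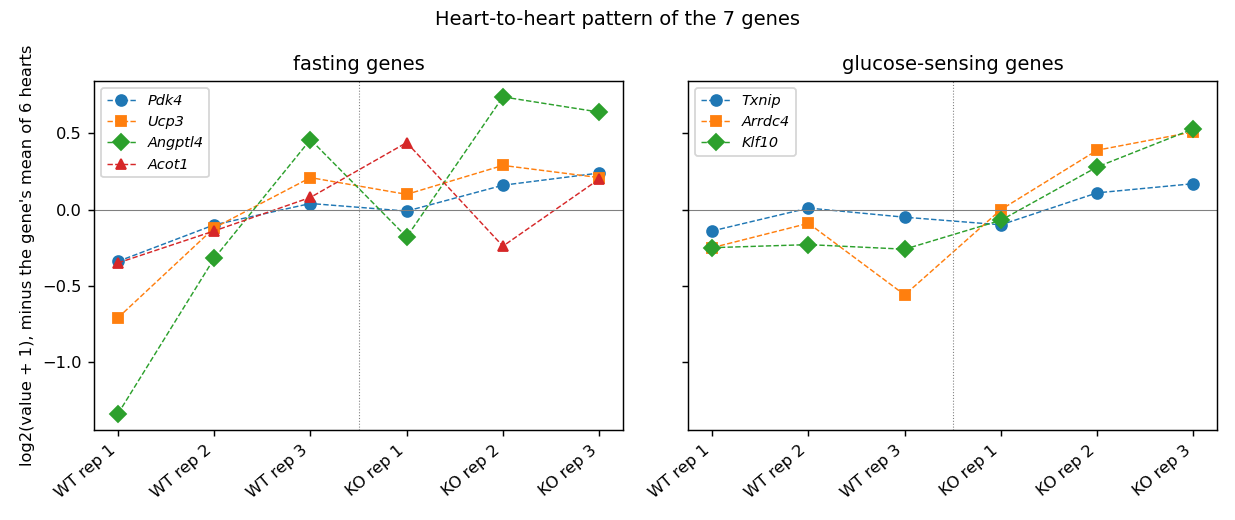
Log2(value + 1) of each gene minus its mean of the 6 hearts (vertical axis, log2 units) in each WT and KO heart, with fasting genes on the left and glucose-sensing genes on the right. Lines only link the points of a gene. *Angptl4*, *Ucp3* and *Pdk4* are lowest in WT replicate 1, at -1.34, -0.71 and -0.34, whereas *Arrdc4* is lowest in WT replicate 3, at -0.56.

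**Figure D3:**
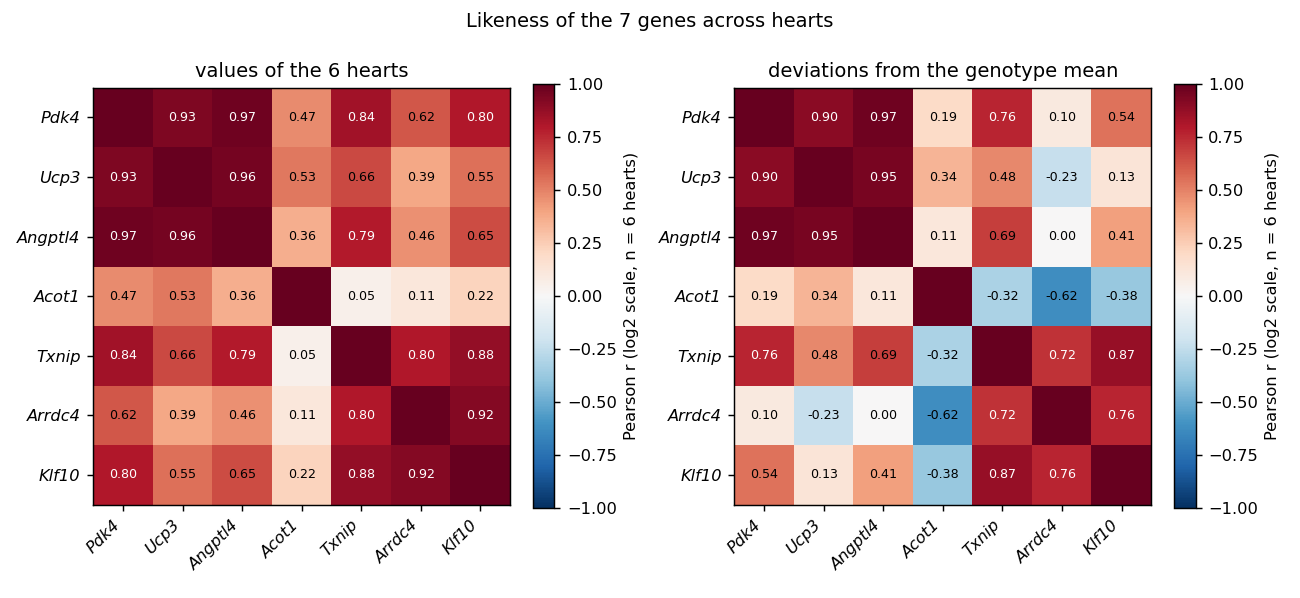
Pearson r between the 7 genes over 6 hearts, from log2(value + 1) on the left and from deviations from the genotype mean on the right. *Pdk4*, *Ucp3* and *Angptl4* stay at 0.90 or above in both panels, and *Ucp3* with *Arrdc4* goes from 0.39 to -0.23.

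WT replicate 1 was the lowest heart for 5 of the 7 genes and WT replicate 3 for 2, while KO replicate 3 was the highest for 4, KO replicate 2 for 2 and KO replicate 1 for 1. Over all tested genes, WT replicate 1 was the lowest for 18.9% and WT replicate 3 for 16.3%. KO replicates 3, 2 and 1 were the highest for 16.3%, 19.1% and 17%. The choice of genes higher in KO favours a WT heart as the lowest and widens the range between hearts, so these values only describe the 7 genes. From the lowest to the highest heart *Arrdc4* differed 2.12-fold, *Ucp3* 2.01-fold, *Klf10* 1.74-fold, *Pdk4* 1.49-fold and *Txnip* 1.24-fold. The median range of tested genes with a mean of at least 100 was 1.2-fold. Without WT replicate 1 the range was 1.33-fold for *Ucp3* and 1.27-fold for *Pdk4*, and the same as before for *Arrdc4* and *Klf10*. *Angptl4* had a range of 2.1-fold instead of 4.36-fold, and *Acot1* of 1.63-fold instead of 1.76-fold.

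The genes most like each of the 7 were taken from those with a mean of at least 100, by Pearson r over all 6 hearts, WT replicate 1 included. Between 107 and 233 of the 13746 other tested genes exceeded an r of 0.9, from 0.778% for *Arrdc4* to 1.7% for *Ucp3*. For *Ucp3* the nearest were *Cpt1a* (r = 0.994), the liver form of the enzyme that admits long-chain fatty acids to mitochondria, *Plin2* (0.993), a lipid droplet coat protein, and *Kdsr* (0.993). *Cpt1a* had counts of 493, 502 and 500 (KO) against 418, 473 and 505 (WT), and *Plin2* 190, 200 and 194 against 166, 186 and 195. Like *Ucp3*, both were lowest in WT replicate 1 and reached the KO level in WT replicate 3.

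For *Pdk4* the nearest genes were *Pdcl* (0.987), *Avl9* (0.979) and *Cntrl* (0.976), and for *Angptl4* they were *Pdcl* (0.987), *Gm43010* and *Gm43259* (0.985 each). *Acot1* was nearest to *Zpr1* (0.986), *Rbm8a* and *Fopnl* (0.978 each). *Txnip* was nearest to *Cant1* (0.986), *Cep192* (0.985) and *St8sia4* (0.983), *Arrdc4* to *Fam43a* (0.991), *Mknk1* (0.980) and *Stau1* (0.975), and *Klf10* to *Mfsd1* (0.995), *Trp53i11* (0.990) and *Nup50* (0.987).

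Around these genes, 6 lists of the same pathways were examined, together 114 genes, of which 109 were tested. None passed an adjusted p of 0.05 (limma). Those at an unadjusted p under 0.05 numbered 12 or 11%, against 790 or 5.74% of all tested genes, 5 of the 12 higher and 7 lower in KO, and the median of the 109 was -0.05 on the log2 scale. Leaving out WT replicate 3 raised this count to 33, leaving out KO replicate 2 or 3 or WT replicate 1 gave 6, and leaving out WT replicate 2 gave 4. The count over all tested genes moved too, to 507 when KO replicate 3 and to 1182 when WT replicate 3 was left out. The pathway count was 6 without the mean-variance trend.

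Of the 14 regulators, all were tested, 5 higher and 9 lower in KO, with log2 fold changes between -0.24 and 0.09. *Ppara*, the main PPAR of the heart, had 288, 239 and 261 reads (KO) against 308, 271 and 261 (WT). *Mlxip* (MondoA) had 457, 465 and 423 against 426, 484 and 428, and *Mlxipl* (ChREBP) 144, 118 and 136 against 158, 161 and 131. *Foxo1* had 266, 286 and 267 against 236, 275 and 290. The values of each of these 4 genes overlapped between genotypes. The other PPAR genes *Ppard* and *Pparg* were at 160, 149 and 128 against 160, 176 and 139 reads and at 80, 85 and 74 against 94, 78 and 90. *Mlx*, the partner of MondoA and ChREBP, was at 53, 68 and 49 against 69, 66 and 53, and the glucocorticoid-induced factor *Klf15* at 181, 127 and 109 against 182, 156 and 145. *Foxo3* was at 855, 826 and 735 against 804, 784 and 702. The receptor genes *Rxra*, *Nr3c1* and *Esrra* and the coactivator gene *Ppargc1b* differed by 0.09, -0.06, 0.00 and -0.01 on the log2 scale. None of these genes separated the genotypes. *Ppargc1a*, a coactivator of PPAR and of mitochondrial genes, was the 1 regulator at an unadjusted p under 0.05, with 1329, 1256 and 1208 against 1401, 1365 and 1349 reads, which differed by -0.12 on the log2 scale (SE 0.06, adjusted p = 0.851 with limma). It was lower in every KO heart than in any WT heart. This count of 1 was 0 under total scaling, without the mean-variance trend and with limma-voom. It was also 0 when KO replicate 2 or 3 or WT replicate 1 or 2 was left out, and 2 when KO replicate 1 or WT replicate 3 was.

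Of 29 PPAR target genes, 28 were tested, 10 higher and 18 lower in KO, and their median difference was -0.07 on the log2 scale. At an unadjusted p under 0.05 (limma) lay 4 genes, and 3 of them are given here. *Ehhadh*, the peroxisomal bifunctional enzyme of fatty acid oxidation, had 135, 138 and 135 reads (KO) against 91, 110 and 122 (WT), which differed by 0.34 on the log2 scale (SE 0.12, adjusted p = 0.772 with limma). *Lpl*, the lipase that *Angptl4* inhibits, had 2731, 2776 and 2858 against 3537, 3105 and 2762, and *Acadl*, a dehydrogenase of long-chain acyl-CoA, 1221, 1296 and 1283 against 1529, 1392 and 1286. The log2 fold changes of these 2 genes were -0.16 (SE 0.07) and -0.14 (SE 0.06), with an adjusted p of 0.851 each (limma). Leaving out WT replicate 3 gave 16 such genes, leaving out WT replicate 1 gave 1, and WT replicate 2 gave 2, as did the fit with no mean-variance trend.

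Heart by heart, the PPAR targets split. *Cpt1a*, *Plin2* and *Ehhadh* had r above 0.8 with each of *Pdk4*, *Ucp3* and *Angptl4*, as did 4 of the 28 in all, where 4.76 to 5.25% of all tested genes exceeded 0.8. *Ehhadh* correlated with *Ucp3* at 0.95 and with *Pdk4* at 0.92. In contrast, 16 of the 28 had r below -0.8 with *Ucp3*, 14 with *Angptl4* and 11 with *Pdk4*, where 6.31 to 7.14% of all tested genes did, and the median r of the list with *Ucp3* was -0.91. The cardiomyocyte markers had a median r of -0.94 with *Ucp3*, and their sum, like the abundant oxidation enzymes *Acadm*, *Hadhb* and *Cpt1b*, was highest in WT replicate 1. *Acadm* had 1339 reads in that heart and 1040 to 1170 in the others. The negative correlations were weaker without that heart. Over the other 5 hearts the median r of the PPAR targets was -0.42 with *Ucp3*, -0.32 with *Angptl4* and -0.14 with *Pdk4*, with 6, 4 and 4 genes below -0.8. Of all tested genes 5.85 to 6.79% were below -0.8 in these hearts. PPAR targets above 0.8 numbered 4 with *Ucp3*, 3 with *Angptl4* and 1 with *Pdk4*, where 6.1 to 6.46% of all tested genes exceeded 0.8. The median r of the cardiomyocyte markers with *Ucp3* was then -0.73. *Cpt1a* and *Plin2* still had r of 0.96 and 0.95 with *Ucp3*, and *Ehhadh* 0.81, whereas with *Pdk4* these 3 genes were at 0.74, 0.76 and 0.75. The part of cardiomyocyte content in these patterns was not tested.

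**Figure D4:**
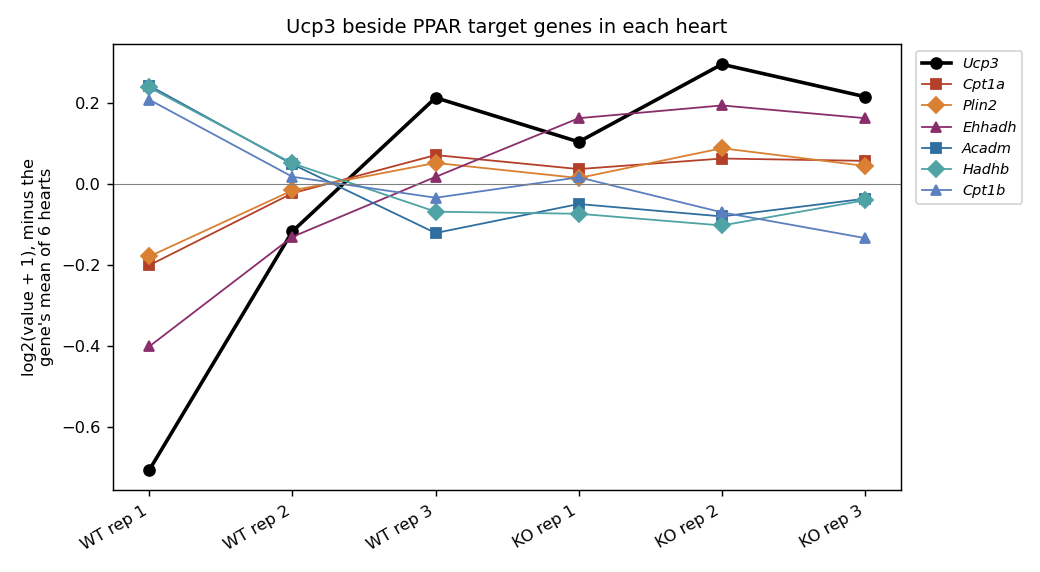
Log2(value + 1) minus the mean of the 6 hearts (vertical axis, log2 units) for *Ucp3* and 6 PPAR target genes, picked after their values were seen to show both directions, in each heart. *Cpt1a*, *Plin2* and *Ehhadh* are low in WT replicate 1 like *Ucp3*, whereas *Acadm*, *Hadhb* and *Cpt1b* are highest there.

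Of the 21 glucose-responsive genes 19 were tested, of which 8 were higher and 11 lower in KO, and their median difference was -0.04 on the log2 scale. Below an unadjusted p of 0.05 (limma), *Bhlhe40*, a clock and glucose responsive repressor, had 392, 404 and 346 reads (KO) against 394, 290 and 267 (WT) (log2 fold change 0.28, SE 0.11). *Pfkfb2*, which raises the glycolytic activator fructose 2,6-bisphosphate, had 205, 183 and 199 against 253, 246 and 193 (-0.23, SE 0.10). *Arrdc3*, the arrestin-domain relative of *Arrdc4*, had 349, 363 and 351 against 439, 379 and 377 (-0.17, SE 0.07). The adjusted p was 0.807 for the first and 0.851 for the others (limma). The count was 1 when KO replicate 2 or 3 or WT replicate 1 or 2 was left out, and 1 under total scaling, with limma-voom and without the mean-variance trend. *Arrdc3* lay below WT in every KO heart, while *Arrdc4* lay above. The median r of the list was -0.02 with *Arrdc4*, -0.06 with *Klf10* and -0.10 with *Txnip*.

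All 19 FoxO and insulin-responsive genes were tested, 7 higher and 12 lower in KO, and their median difference was -0.06 on the log2 scale. *Irs2*, an insulin receptor substrate, had 143, 112 and 94 reads (KO) against 148, 160 and 141 (WT), which differed by -0.38 on the log2 scale (SE 0.13, adjusted p = 0.772 with limma). The muscle ubiquitin ligases *Fbxo32* and *Trim63*, FoxO targets that rise in fasted muscle, had 1688, 1512 and 1642 against 1748, 1805 and 1619 and 514, 429 and 504 against 537, 534 and 449, with overlapping groups. Of the 12 genes of the pyruvate dehydrogenase complex, its kinases, phosphatases and the pyruvate carrier, none was at an unadjusted p under 0.05 (limma), and the log2 fold changes ran from -0.14 to 0.10. The sister kinases of *Pdk4* were at -0.10 (*Pdk1*), -0.10 (*Pdk2*) and 0.04 (*Pdk3*). The count of this list was 4 without WT replicate 3 and 1 without KO replicate 1. That of the FoxO list, 1 with all hearts, was 5 without WT replicate 3, 0 without KO replicate 3 and 1 or 2 otherwise.

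Among 24 genes of the same families or with direct roles beside the 7, 22 were tested, 12 higher and 10 lower in KO, with 5 at an unadjusted p under 0.05 (limma), *Lpl* and *Arrdc3* included. This count was 1 without KO replicate 2 or WT replicate 2, 2 without WT replicate 1, and 3 when KO replicate 1 or 3 was left out, and 2 with no mean-variance trend. *Acot2*, the mitochondrial paralog of *Acot1*, had 288, 220 and 261 reads (KO) against 235, 237 and 257 (WT), and correlated with *Acot1* at 0.94. *Acot3*, a peroxisomal relative, had 13, 13 and 16 against 10, 8 and 7, which differed by 0.69 on the log2 scale (SE 0.32, adjusted p = 0.851 with limma). *Acot13* had 321, 317 and 333 against 399, 379 and 332, and *Angptl2* 462, 473 and 465 against 453, 416 and 384, with log2 fold changes of -0.19 (SE 0.08) and 0.16 (SE 0.07) and adjusted p of 0.851 each (limma). *Ucp2* had 197, 270 and 223 against 196, 208 and 191. *Ucp1*, the uncoupling protein of brown fat, was at 0 in all hearts but KO replicate 2, where it had 3 reads.

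**Figure D5:**
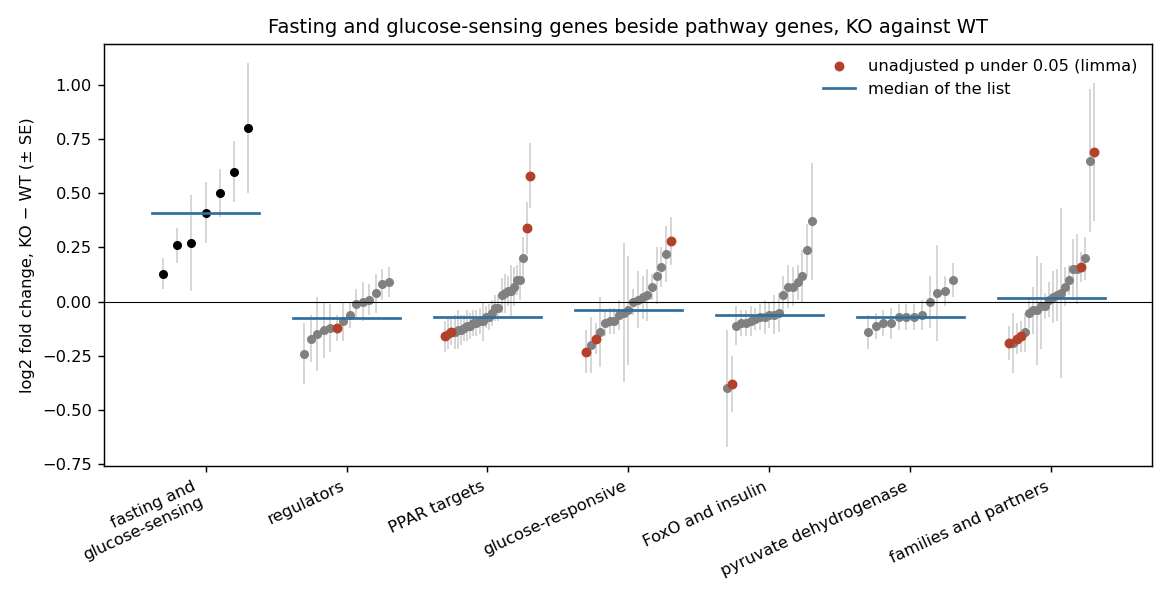
Log2 fold change of KO against WT (vertical axis, ± SE) of the 7 genes (black) and of the tested genes of 6 pathway lists, with the median of each list as a line and genes at an unadjusted p under 0.05 (limma) in red. The medians of the pathway lists lie between -0.07 and 0.01, and that of the 7 genes at 0.41. The 7 genes were chosen by this contrast, so nothing is read from the gap.

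Other gene groups that vary with the state of the animal are given beside these values. Of 17 clock genes, all were tested and 6 (35.3%) were at an unadjusted p under 0.05, all higher in KO, beside 2.94% of all tested genes that were higher, with 0 at an adjusted p under 0.05 (limma). The list held genes of both directions, 12 higher and 5 lower in KO, and its summed level was 5661, 5565 and 5201 (KO) against 5192, 5200 and 4870 (WT). Of 13 immediate early genes 12 were tested and 4 (33.3%) were at an unadjusted p under 0.05, again higher in KO beside the same 2.94%, and the summed level was 1190, 1007 and 988 (KO) against 873, 939 and 857 (WT). Of 12 glucocorticoid-responsive genes 11 were tested and 1 (9.09%) was at an unadjusted p under 0.05, with summed levels of 3257 to 3984 in KO and 3732 to 3927 in WT hearts. The glucocorticoid count ran from 0 to 3 when a heart was left out, with 3 for KO replicate 1. The clock count was 2 without WT replicate 3, and the immediate early count 2 without KO replicate 1 or WT replicate 1. The median r of the clock genes was 0.06 with *Pdk4*, 0.12 with *Ucp3*, -0.05 with *Angptl4* and 0.25 with *Acot1*. It was 0.10 with *Txnip*, 0.48 with *Arrdc4* and 0.22 with *Klf10*. The part of the hour of collection, handling or feeding in the levels of the 7 genes was not tested.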

How the data were processed

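Strand-specific total RNA libraries of 3 *Trdn-as* KO and 3 WT hearts were sequenced with single-end reads. Per the labels and the study's methods, reads were trimmed with Trimmomatic 0.39, aligned to GRCm38 with STAR 2.6.1d, freed of duplicates with Picard 2.21.1 and of multi-mapping, ribosomal and mitochondrial reads, and counted over exons by strand with featureCounts 1.6.5, leaving out reads of more than 1 gene. The authors divided the counts by DESeq2 size factors, and the deposited values are this score, rounded to whole numbers. Raw counts and the DESeq2 contrasts were not used here.

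Values were transformed to log2(value + 1), so that fold changes of low genes are understated. Genes with a mean of at least 10 were tested, 13753 of 21776. The genotypes were contrasted without covariates in limma 3.58.1 (R 4.3.3), using eBayes and its trend option, and two-sided p-values were adjusted over all tested genes by Benjamini-Hochberg at 0.05. The procedure was tested on simulated data. Size factors, and from them read totals, were estimated from the rounding pattern of values under 1000. Counting errors take each read as a separate molecule, which cannot be checked as no molecular identifiers were used, and cover no other error. Exon lengths were taken from GENCODE M21, which holds 99.8% of the gene identifiers, and promoters from RefSeq.

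The 7 genes, the pathway lists and the marker lists were chosen with earlier results of these data known. The lists come from general knowledge of the pathways. Named were the 7 genes, the genes of the 6 pathway lists at an unadjusted p under 0.05 (at most 4 per list, by smallest p), regulators, and the 3 genes with a mean of at least 100 most correlated with each of the 7. Clock, immediate early, glucocorticoid and cell type lists were given by counts or summed levels. *Acot3*, the fifth of its list, other list genes and the markers named were chosen after their values were seen. The labels number the hearts but do not describe the animals, so p-values measure the spread between these samples. Alternatives were median-of-ratios and total scaling, a pseudocount of 0.1, other filters, no mean-variance trend, limma-voom, a replicate block, a threshold of 0.01 and leaving out each heart. The values of 1 list gene are not reported here.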

Additional observations from a re-analysis of the deposited data

How the results depend on the processing

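The fold changes of the 7 genes kept their direction in all 14 alternatives run for them, and all 7 were higher in KO in each. The choice of these genes by the same contrast favours this. Outside the fits that left out a heart they moved by at most 0.05, with *Angptl4* at 0.85 under limma-voom. The median r between the 7 genes was 0.65, ran from 0.65 to 0.69 in those alternatives and from 0.60 to 0.88 when a heart was left out, with 0.88 without WT replicate 3. Genes past an adjusted p of 0.05 (limma) numbered 4 over all tested genes, 2 with at least 10 in every sample, 1 without the mean-variance trend and 2 at a threshold of 0.01, and 2 to 32 when a heart was left out, where leaving out KO replicate 1 gave 32, WT replicate 3 gave 7, and KO replicate 2 or WT replicate 1 gave 2. Pathway genes at an unadjusted p under 0.05 numbered 12, and 6 without the trend, and 4 to 33 when a heart was left out. A stricter filter and threshold leave fewer genes by construction, and the cause of the other shifts was not tested. Under total scaling the median over all tested genes was 0.025 on the log2 scale instead of 0.002. Replicate numbers did not pair the hearts, as deviations from the genotype means of same-numbered hearts correlated across genes at 0.0476, -0.068 and -0.0278. With the replicate number as a block, 4 genes passed, 15 pathway genes were at an unadjusted p under 0.05 (7 PPAR targets instead of 4, and 2 regulators instead of 1), and the count of the 7 genes higher in KO (7) and the median r (0.65) were as before. Depth limits *Acot1* and *Angptl4* most, with as few as an estimated 20 and 22 sequenced reads in a library before normalisation.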
